A study of Rattus norvegicus with 4 samples.

Results

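Aldo-keto reductases (Akr), aldehyde dehydrogenases (Aldh) and alcohol dehydrogenases (Adh) were described in the articular cartilage of 2 Sprague-Dawley rats aged 10 weeks. Of 31007 gene rows, 46 carried a symbol that starts with Akr, Aldh or Adh followed by a digit, and the 28 of these that were not 0 in all 4 libraries are the members: 11 Akr, 12 Aldh and 5 Adh genes. The superficial zone (SFZ), which faces the joint space, and the deeper cartilage (deep AC) had been cut separately from frozen sections of the proximal tibia by laser microdissection, 1 library of each zone from each rat. RNA was amplified linearly before sequencing, so many reads can come from 1 starting molecule, and the source texts do not define the borders of the captured areas. Both zones shared strain, age and protocol and differed in the area captured. The members were chosen by symbol and by a deposited value other than 0 in any library, and they were proposed with results of these data known, so their zone differences are given as a description.

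These enzymes handle reactive carbonyl groups. Aldo-keto reductases use NADPH to turn aldehydes and ketones, among them sugars, steroids and prostaglandins, into alcohols, alcohol dehydrogenases interconvert alcohols and aldehydes, and aldehyde dehydrogenases oxidize aldehydes to acids. Some have a single metabolic task, such as making retinoic acid or steps of proline, folate and valine metabolism, and others clear aldehydes left by lipid oxidation or alcohol.

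The Akr genes of chromosome 17 had lower values in SFZ and Aldh1a2 had higher ones. The promoters of Aldh1a2 and of 3 of the chromosome 17 genes are shown as examples of genes at least 2-fold apart in both rats, Akr1c14 because it had reads in every library. Each is 250 bases before to 50 after the gene's start, from RefSeq on GRCr8, 5′ to 3′ on the gene's strand, at chr8:80758391-80758690 (plus), chr17:70717831-70718130 (minus), chr17:71083135-71083434 (minus) and chr17:70645632-70645931 (plus). Capitals mark the CCAAT box (CCAAT) and the core of the antioxidant response element (TGACNNNGC, the element bound by NRF2), on either strand.
Aldh1a2: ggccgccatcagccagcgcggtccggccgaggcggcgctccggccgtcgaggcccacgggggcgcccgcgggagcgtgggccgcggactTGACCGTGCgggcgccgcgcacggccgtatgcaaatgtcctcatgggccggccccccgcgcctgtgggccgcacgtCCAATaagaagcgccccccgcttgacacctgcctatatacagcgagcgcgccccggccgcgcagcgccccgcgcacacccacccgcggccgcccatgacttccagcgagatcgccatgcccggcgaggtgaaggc
Akr1c2: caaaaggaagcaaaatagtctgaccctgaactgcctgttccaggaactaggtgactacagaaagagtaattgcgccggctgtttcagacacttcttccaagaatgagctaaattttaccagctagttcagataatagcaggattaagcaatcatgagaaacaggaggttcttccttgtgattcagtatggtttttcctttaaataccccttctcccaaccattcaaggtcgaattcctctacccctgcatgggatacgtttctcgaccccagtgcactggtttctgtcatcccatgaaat
Akr1c14: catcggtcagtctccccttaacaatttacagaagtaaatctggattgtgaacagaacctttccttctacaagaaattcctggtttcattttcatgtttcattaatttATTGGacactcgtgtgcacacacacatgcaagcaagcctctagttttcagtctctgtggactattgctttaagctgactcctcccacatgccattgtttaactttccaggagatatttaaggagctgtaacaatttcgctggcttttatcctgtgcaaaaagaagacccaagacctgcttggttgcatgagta
Akr1e2: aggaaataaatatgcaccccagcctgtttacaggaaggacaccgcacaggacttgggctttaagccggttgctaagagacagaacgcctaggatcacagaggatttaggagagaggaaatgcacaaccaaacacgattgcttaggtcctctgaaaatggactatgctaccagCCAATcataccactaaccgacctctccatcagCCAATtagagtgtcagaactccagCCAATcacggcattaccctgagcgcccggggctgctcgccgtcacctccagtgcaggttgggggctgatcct
The Aldh1a2 window was 76.0% G and C, and those of Akr1c2, Akr1c14 and Akr1e2 were 43.7%, 40.7% and 52.3%, beside a median of 51.7% over all 33469 promoters. TGACNNNGC was in the Aldh1a2 window and in none of these 3 Akr windows. It was in 12.1% of all promoters and in 3 of the 22 members with a promoter in the table, Aldh1a2, Aldh16a1 and Aldh9a1. CCAAT was in 37.5% of all promoters and in 13 of the 22, among them Aldh1a2, Akr1c14 and Akr1e2, whose window holds it 3 times. A match to these letters is a description and does not show binding.

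The deposited value of a gene in a library is the log2 of its scaled reads, with everything under 1 set to a floor of 1, less the median of the row. Reads are given where that structure fixes them: the floor stands for no read in an SFZ library, and for at most 1 read in a deep AC library, because the scaling of SFZ puts a single read above it; fractional reads can also sit there. Of the 28 members, 12 had a library at the floor and so have fixed reads, 10 have reads known up to a common factor, and for 6 only the differences are known. A mean of at least 10 scaled reads, needed to enter the test across genes, was reached by 23 members. The 6 known only by differences reached it through an assigned level. Differences are SFZ minus deep AC within a rat, on the log2 scale, with ± for the SD over n = 2 rats. Fewer cells of a type and less RNA per cell cannot be told apart in such samples.

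**Figure D1:**
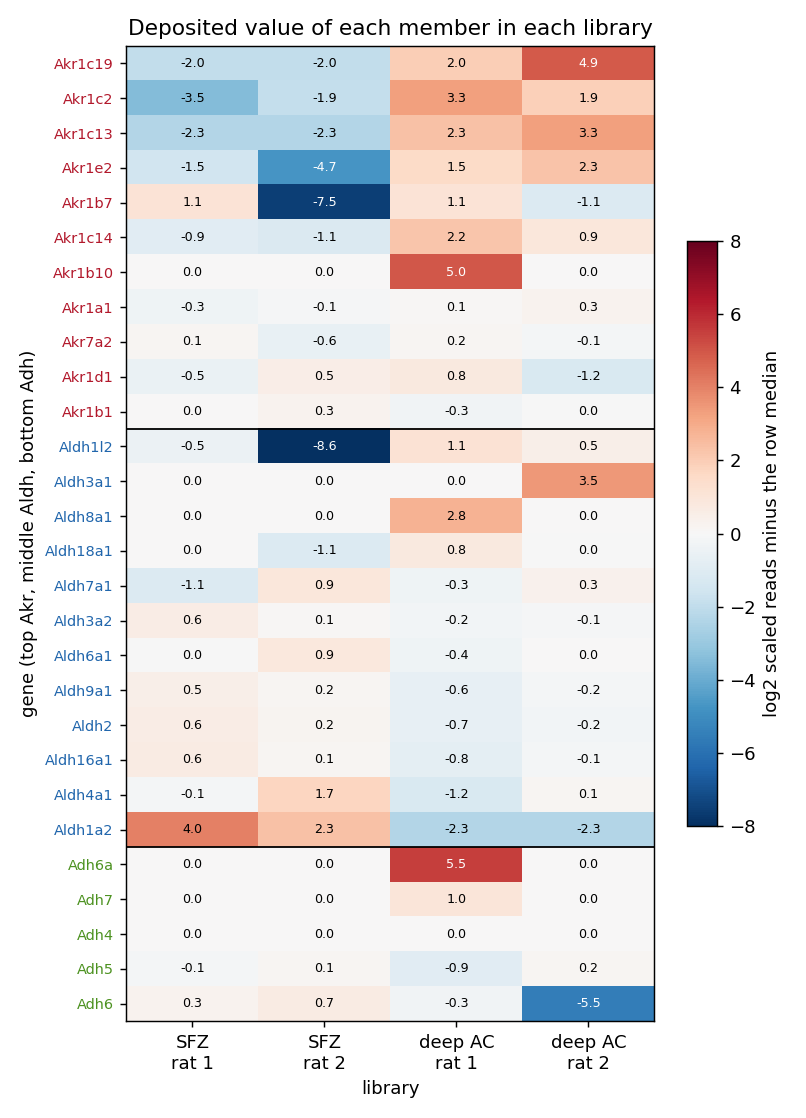
Deposited value (log2 scaled reads minus the row median, colour and number) of each of the 28 members in the 4 libraries. Within each family genes are ordered by mean zone difference; the Akr1c genes and Akr1e2 are blue in both SFZ columns and red in both deep AC columns, and Aldh1a2 is the reverse.

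The 5 Akr genes of chromosome 17 with any value, Akr1c2, Akr1c13, Akr1c14, Akr1c19 and Akr1e2, were each at least 2-fold lower in SFZ in both rats. The Akr1c enzymes reduce steroids and prostaglandins, and Akr1e2 is known in mouse as an anhydrofructose reductase. They lie on rn4 within 397.9 kb of chromosome 17 (76969835 to 77367689), a stretch that holds 10 Akr rows, of which the other 5 (Akr1c1, Akr1c12, Akr1c12l1, Akr1c18 and Akr1cl1) were 0 in all 4 libraries.

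Akr1c2 (Entrez 291283, chromosome 17, 77034745 to 77081406, minus strand) had 0 (rat 1) and 3 (rat 2) reads in SFZ, where deep AC had 110 and 45. Both SFZ libraries lay below both deep AC libraries. Deep AC was 50.3-fold above SFZ over the summed scaled reads (exact 95% interval 16.9 to 246.7, for counting error alone), and the within-rat differences were -6.78 and -3.79, a mean of -5.28 ± 2.11 (limma adjusted p = 0.576).

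Akr1c13 (Entrez 364773, named Akr1c12 in the current RefSeq, chromosome 17, 77203589 to 77219705, minus strand) had 0 reads in both SFZ libraries against 25 (rat 1) and 53.5 (rat 2) in deep AC. It was at least 8.12-fold lower in SFZ in rat 1 and at least 16.4-fold lower in rat 2, set against 3 counts in each SFZ library, for counting error alone. The differences were -4.64 and -5.63, a mean of -5.13 ± 0.70 (limma adjusted p = 0.579).

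Akr1c19 (Entrez 307096, chromosome 17, 77162221 to 77183258, plus strand) also had 0 reads in both SFZ libraries, with 15 (rat 1) and 125 (rat 2) in deep AC, so the deep AC libraries themselves were far apart. It was at least 4.87-fold lower in SFZ in rat 1 and at least 38.4-fold lower in rat 2 by the same floor, with differences of -3.90 and -6.85, a mean of -5.38 ± 2.08 (limma adjusted p = 0.579). With quantile normalization, which moves the floor of each library, the differences of Akr1c19 in rat 1 and rat 2 were -0.36 and -5.56, and those of Akr1c13 were -0.84 and -4.02.

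Akr1c14 (Entrez 191574, chromosome 17, 77316456 to 77332903, minus strand), the main hydroxysteroid dehydrogenase of rat liver cytosol, was the member of this group with reads in every library. Its reads, up to a common factor, were 41 and 36 in SFZ rat 1 and rat 2 and 364 and 163 in deep AC. The SFZ libraries were close to each other and both below deep AC, with differences of -3.11 and -2.06, a mean of -2.59 ± 0.74 (limma adjusted p = 0.582).

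Akr1e2 (Entrez 307091, chromosome 17, 77011336 to 77025820, plus strand) had 9 reads in SFZ rat 1 and 0 in SFZ rat 2, against 78 and 141 in deep AC. Deep AC was 22.6-fold above SFZ (exact 95% interval 11.7 to 50.1, counting error alone). Its differences were -3.08 and -7.02, a mean of -5.05 ± 2.79 (limma adjusted p = 0.579).

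Over the 5 chromosome 17 genes the medians were -3.90 in rat 1 and -5.63 in rat 2. Over all 10789 rows that were not 0 in all 4 libraries the medians were -0.27 and 0.00. The table lists each of the 5 as a paralog of the other 4, and near-identical copies can share or split reads, so they are not 5 separate measurements. Akr1c13 had a fraction of a read in deep AC rat 2. The other 3 rows inside the stretch were 0 in all libraries. Of the 12 rows within 500 kb on either side, 5 had a value, of which 0 were at least 2-fold lower in both rats and 1 was at least 2-fold higher, with medians of 0.49 and 0.00. The shares over all 10789 rows were 12.3% lower and 5.36% higher, so 5 rows are too few to be read as a result about the neighbours.

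**Figure D2:**
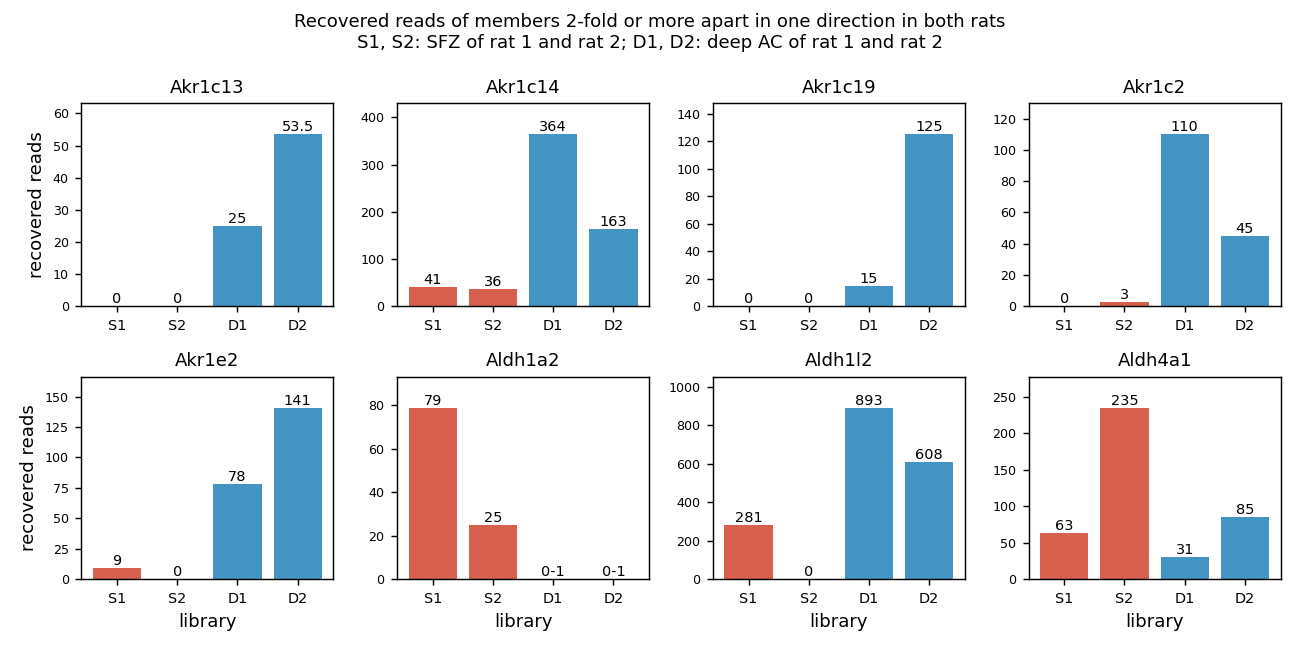
Recovered reads (bars from 0, linear axes with a scale for each gene, no replication within a bar) of the 8 members at least 2-fold apart in one direction in both rats. Red bars are SFZ and blue bars deep AC of rat 1 and rat 2; those of Akr1c14 and Aldh4a1 are known up to a common factor, and 0-1 marks the deep AC floor. Aldh1l2 had 281 reads in SFZ rat 1 and 0 in SFZ rat 2.

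The other 6 Akr genes showed no shared direction. Akr1b1, which encodes aldose reductase, the first enzyme of the polyol pathway from glucose to sorbitol, had deposited values of 0.01 and 0.28 in SFZ rat 1 and rat 2 and -0.26 and -0.01 in deep AC. Both SFZ libraries were just above both deep AC libraries, with differences of 0.27 and 0.29, a mean of 0.28 ± 0.02 (limma SE 0.41, adjusted p = 0.856). Akr1a1, an aldehyde reductase that takes part in vitamin C synthesis in rodents, stood at -0.32 and -0.11 in SFZ and 0.11 and 0.30 in deep AC. Its differences were -0.43 and -0.42, a mean of -0.42 ± 0.01 (limma SE 0.41, adjusted p = 0.768). The zone differences of Akr1b1 and Akr1a1 thus varied little between the rats and were less than 2-fold, although the values within a zone differed between the rats. Akr7a2, which reduces succinic semialdehyde, differed by -0.03 and -0.42.

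Akr1d1, a steroid reductase known from bile acid synthesis in liver, went in opposite directions in the rats. Its reads, up to a common factor, were 1371 (rat 1) and 2814 (rat 2) in SFZ against 3458 and 909 in deep AC. The differences were -1.30 and 1.75, so the zones overlapped. Akr1d1 was the single member at least 2-fold apart in opposite directions, a pattern found in 9.94% of all rows not 0 in all 4 libraries.

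Akr1b7, an aldose reductase relative first known from mouse vas deferens, was decided by 1 library. Its deposited values were 1.10 (rat 1) and -7.51 (rat 2) in SFZ against 1.09 and -1.09 in deep AC. SFZ rat 1 and deep AC rat 1 were nearly level, a difference of 0.01, while the difference in rat 2 was -6.42. Without SFZ rat 2 the mean difference was 1.10 in place of -3.21. Akr1b10 had 32 reads in deep AC rat 1 and was at the floor in the other 3 libraries, and Akr1b8 was 0 in all 4.

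Among the aldehyde dehydrogenases, Aldh1a2 had the highest mean difference and Aldh1l2 the lowest. Of 12 members, 7 were higher in both rats and 2 lower in both, where 20.8% of all rows with a value were higher in both and 27.3% lower in both. The medians were 0.58 in rat 1 and 0.32 in rat 2.

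Aldh1a2 (Entrez 116676, chromosome 8, 75692099 to 75771159, plus strand), which makes retinoic acid from retinaldehyde, was the member with the largest mean difference towards SFZ. It had 79 reads in SFZ rat 1 and 25 in SFZ rat 2, while deep AC was at the floor in both rats. Both SFZ libraries were above both deep AC libraries. The differences were 6.34 and 4.65, a mean of 5.49 ± 1.20 (limma adjusted p = 0.574). A fold is left out because the deep AC floor can hide 1 read. Of all rows not 0 in all 4 libraries, 0.389% were above the floor in both SFZ libraries and at it in both deep AC libraries. Aldh1a1 and Aldh1a3, which make retinoic acid too, were 0 in all 4 libraries.

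Aldh1l2 (Entrez 299699, chromosome 7, 22398067 to 22450381, plus strand), the mitochondrial enzyme that oxidizes formyl-tetrahydrofolate in the folate pathway, was lower in SFZ to a degree that differed between the rats. It had 281 (rat 1) and 0 (rat 2) reads in SFZ, where deep AC had 893 and 608. The difference was -1.63 in rat 1. In rat 2, SFZ was at least 186.8-fold lower, set against 3 counts in that library, a bound for counting error alone. The mean of -5.38 ± 5.30 (limma adjusted p = 0.579) rests on SFZ rat 2: without that library it was -1.30.

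The proline enzymes of the family differed in sign. Aldh4a1, which oxidizes glutamate semialdehyde in proline breakdown, had reads of 63 and 235 in SFZ rat 1 and rat 2 and 31 and 85 in deep AC, up to a common factor. It was higher within each rat, by 1.06 and 1.58, a mean of 1.32 ± 0.37 (limma SE 1.17, adjusted p = 0.755), although SFZ rat 1 lay below deep AC rat 2. Its mean difference was 0.39 without SFZ rat 2, 0.65 without deep AC rat 1, 1.99 without deep AC rat 2 and 2.26 without SFZ rat 1. Aldh18a1, which makes the same semialdehyde on the way to proline, a main residue of collagen, had reads of 1541 and 726 in SFZ and 2714 and 1661 in deep AC, up to a common factor. It was lower within each rat, with differences of -0.78 and -1.08, a mean of -0.93 ± 0.21 (limma SE 0.40, adjusted p = 0.582), and did not reach 2-fold in rat 1.

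The other aldehyde dehydrogenases did not reach 2-fold in one direction in both rats. Aldh2, which clears acetaldehyde, had reads of 1609 and 1269 in SFZ and 691 and 1001 in deep AC, up to a common factor, with differences of 1.26 and 0.46 (mean 0.86 ± 0.56, limma adjusted p = 0.613). Aldh9a1, an enzyme of carnitine synthesis, differed by 1.13 and 0.36, and Aldh3a2, the fatty aldehyde dehydrogenase, by 0.83 and 0.15. Aldh16a1 differed by 1.43 and 0.29. In these 4 genes both SFZ libraries were above both deep AC libraries and the difference was larger in rat 1 than in rat 2. Aldh6a1, of valine breakdown, differed by 0.33 and 0.85, and Aldh7a1, of lysine breakdown, by -0.77 and 0.59, on opposite sides of 0. Aldh3a1 had 12 reads in deep AC rat 2 and Aldh8a1 had 7 in deep AC rat 1, with the other libraries at the floor.

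The alcohol dehydrogenases form a cluster on chromosome 2 (235749346 to 235991515), and their members did not share a direction. Adh5, the glutathione-dependent enzyme that clears formaldehyde, had reads of 498 and 609 in SFZ and 304 and 682 in deep AC, up to a common factor, and differences of 0.75 and -0.05 (mean 0.35 ± 0.56, limma adjusted p = 0.869). Adh6 had deposited values of 0.27 and 0.68 in SFZ, -0.27 (rat 1) and -5.51 (rat 2) in deep AC. The difference of Adh6 in rat 2, 6.19, therefore came from 1 low deep AC library, while that in rat 1 was 0.53. Without deep AC rat 2 the mean difference of Adh6 was 0.74 in place of 3.36. Adh6a had 47 reads in deep AC rat 1 and was at the floor elsewhere. Adh7 had 2 reads in deep AC rat 1 and Adh4 1 read in SFZ rat 2, the lowest values that still met the rule. Just outside it, 18 rows were 0 in all 4 libraries, among them Adh1, Akr7a3, Aldh1a7, Aldh1b1, Aldh3b1, Aldh3b2, Aldh5a1 and 3 Akr1b1 pseudogenes.

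**Figure D3:**
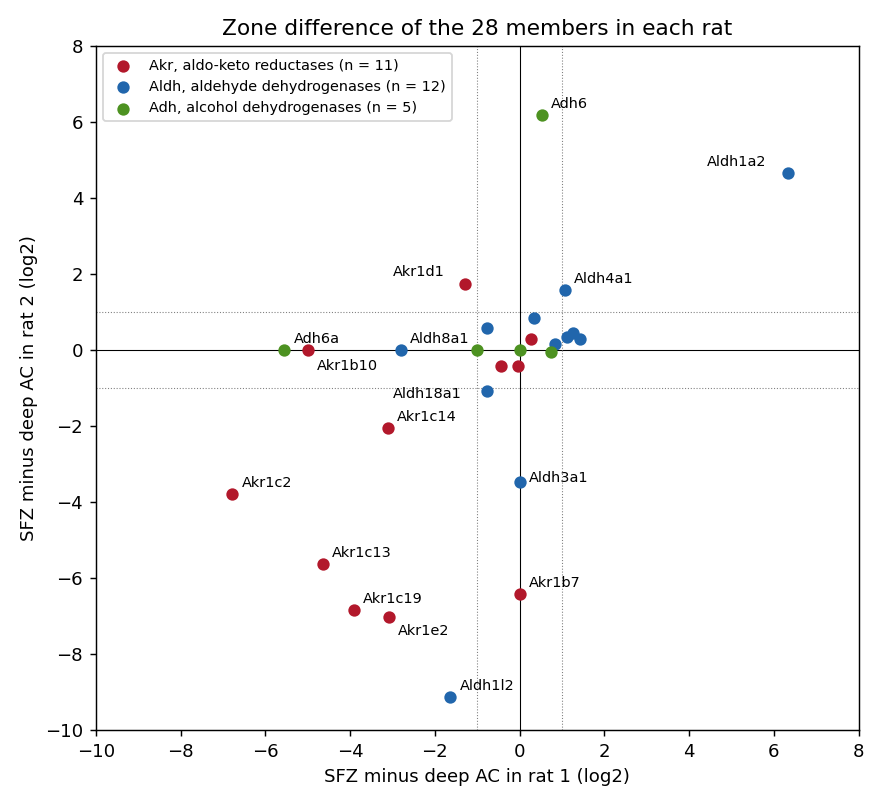
Zone difference (SFZ minus deep AC, log2) in rat 1 on the x axis and rat 2 on the y axis for the 28 members, coloured by family, with dotted lines at 1 and -1. The 5 Akr genes of chromosome 17 and Aldh1l2 are at the lower left, Aldh1a2 at the upper right, and members on an axis were at the floor in both libraries of 1 rat or nearly level there.

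Set side by side, the families differed in their medians and counts, which are given without a test because members are not replicates and near-identical ones may share reads. The median difference was -3.08 and -2.06 in rat 1 and rat 2 for Akr, 0.58 and 0.32 for Aldh, and 0.00 and 0.00 for Adh. Those of Adh come from genes at the floor in both libraries of a rat, Adh4 in rat 1 and Adh6a and Adh7 in rat 2. They do not show measured equality of the zones. At least 2-fold lower in SFZ in both rats were 5 of 11 Akr genes, 1 of 12 Aldh genes (Aldh1l2) and 0 of 5 Adh genes, 6 of 28 in all, where 12.3% of all rows not 0 in all 4 libraries were. At least 2-fold higher in both were 0 Akr, 2 Aldh (Aldh1a2 and Aldh4a1) and 0 Adh genes, 2 of 28, where 5.36% of all rows were. Both SFZ libraries were below both deep AC libraries in 6 Akr and 1 Aldh genes (22.2% of all rows) and above them in 1 Akr, 5 Aldh and 1 Adh genes (16.2%). The low median of Akr came from the chromosome 17 genes: the other 6 had medians of -0.23 and -0.21.

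**Figure D4:**
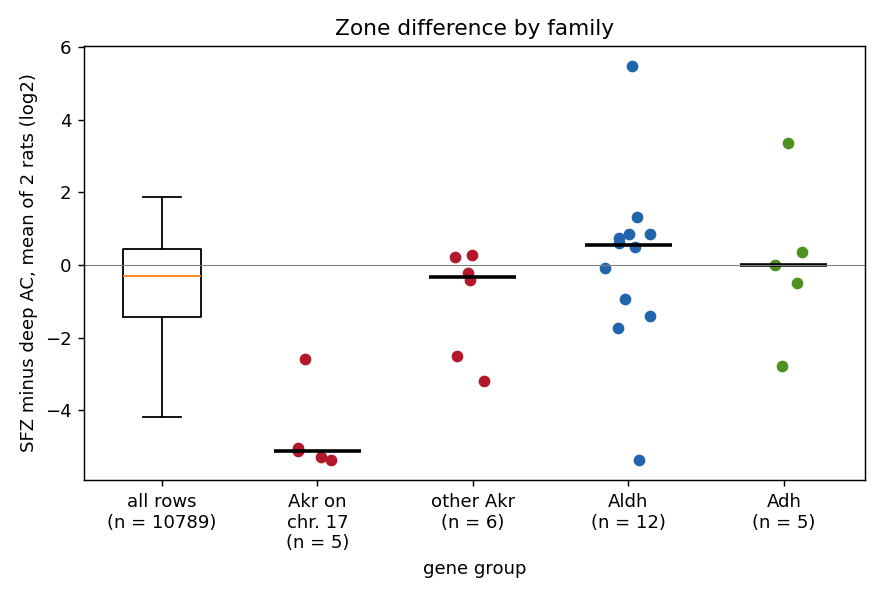
Mean zone difference over 2 rats (log2) of each member by group, with a black line at the group's median. The box at the left gives the median (orange), the quartiles and the 5th to 95th percentiles (whiskers) of all 10789 rows not 0 in all 4 libraries; 4 of the 5 chromosome 17 Akr genes lie between -5.38 and -5.05.

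In the test across all genes, limma called 0 of 8799 rows as lower (0%) and 0 as higher (0%) at an adjusted p of 0.05, and 0 of the 23 members tested. At an unadjusted p under 0.05, 4.83% of rows were lower and 3.88% higher, and 1 member, Aldh1a2, was among them. With 1 residual degree of freedom the fit leans on the spread shared across genes, and 2 rats cannot give a permutation test below 0.05. Quantile normalization turned the split of all tested rows at least 2-fold apart in both rats from 1047 lower and 564 higher (65.0% lower) to 694 lower and 935 higher (42.6% lower), and moved the median of all tested rows in rat 1 from -0.13 to 0.06 (rat 2: 0.00 to 0.05). Under it Akr1c2, Akr1c14, Akr1e2 and Aldh1l2 were still at least 2-fold lower in both rats, Aldh1a2 and Aldh4a1 still at least 2-fold higher, and Akr1c13 and Akr1c19 were lower in both but less than 2-fold in rat 1.

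The libraries themselves differed. Over tested rows the 2 SFZ libraries were farther apart (SD of the log2 difference 2.71) than the 2 deep AC libraries (1.45), and 872 and 796 rows were at the floor in SFZ rat 1 and rat 2 against 189 and 352 in deep AC. Floors in both SFZ libraries with reads in both deep AC libraries, as for Akr1c13 and Akr1c19, occurred in 5.71% of all rows not 0 in all 4 libraries. Cell type markers were also chosen with earlier results of these data known, so they are no separate check of the zone labels. Of 7 superficial zone markers with a value, 5, Prg4 among them, were at least 2-fold higher in SFZ in both rats. Of 9 hyaline cartilage markers, 9 were at least 2-fold lower. Among all rows not 0 in all 4 libraries, 12.3% were at least 2-fold lower in both rats and 5.36% higher. Markers of the hypertrophic and calcified zone (5 of 6) and of osteoblasts and osteocytes (2 of 5) were at least 2-fold lower in both rats, in the same direction as the chromosome 17 Akr genes. The 3 hypertrophic markers with known reads summed to 0 scaled reads in both SFZ libraries and to 539 and 774.1 in deep AC. Alpl, Ibsp and Pth1r, known by differences only, are not in that sum. Pth1r differed by -2.81 and -2.60, less than Alpl (-7.76 and -9.36) and Ibsp (-8.75 and -10.27). Col10a1 and Panx3 were 0 in all 4. The osteoblast markers summed to 293.4 and 8.01 in SFZ and 934.5 and 110.7 in deep AC, with Sp7 and Sost at 0 in all 4. Dmp1 enters that sum with reads known up to a common factor. Synovial and tendon fibroblast markers had no shared direction and were at least 2-fold higher in 1 of 7 and lower in 1 of 7. The 5 with recovered reads summed to 1237 and 3332 in SFZ and 1009 and 1287 in deep AC. Pdgfra and Scx enter that sum with reads known up to a common factor, so it is a rough guide. Most of it was Pdgfra, with 1118 and 3117 in SFZ and 795 and 1167 in deep AC. Thy1 and Cd34 were 0 in all 4. Of 10 macrophage markers, 0 were at least 2-fold higher in both rats and 1 lower, and they summed to 3273 and 1731 scaled reads in SFZ and 3818 and 1825 in deep AC. Lyz2, Mrc1 and Ptprc enter that sum with reads known up to a common factor. The 2 SFZ libraries differed in both directions within this list. SFZ rat 1 had 119 reads of C1qa, 91 of C1qb, 36 of C1qc and 167 of Aif1. SFZ rat 2 had 0 of each. Lyz2 was also higher in SFZ rat 1, with 1649 against 196 reads, up to a common factor. Cd68 was the reverse, with 0 and 68 reads in SFZ rat 1 and rat 2. Mrc1 (1112 and 1436) and Ptprc (27 and 30), up to a common factor, were closer. Csf1r (1 and 0) and Cd163 (0 and 0) were at or near 0. Of 4 skeletal muscle markers with a value, 1 was at least 2-fold lower in both rats (Tnni2, -9.66 and -10.47) and 0 higher. Of 3 adipocyte markers and 2 of endothelium and blood, 0 were at least 2-fold apart in one direction in both rats. Hba-a2 had 329 and 1586 reads in SFZ and 351 and 252 in deep AC, up to a common factor. The part of all these markers in the results was not tested.

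Genes that work beside the members were read from lists chosen with earlier results known, and none of their rows passed limma across all genes. Of all rows not 0 in all 4 libraries, 12.3% were at least 2-fold lower in SFZ in both rats and 5.36% higher. The counts of each list stand beside these shares, and being small they are not read as results about a list. In retinoid metabolism, 3 of 14 rows with a value were at least 2-fold lower in SFZ in both rats and 0 higher, with medians of -1.56 and 0.06. Bcmo1, which cleaves beta-carotene to the retinaldehyde that Aldh1a2 oxidizes, had 39 (rat 1) and 43 (rat 2) reads in deep AC and 0 in either SFZ library. Crabp2, a binding protein of retinoic acid, had 5 and 0 reads in SFZ and 158 and 17 in deep AC. Both genes were thus lower in the zone where Aldh1a2 was higher, with limma adjusted p of 0.575 and 0.582.

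In the polyol and pentose sugar pathway, 2 of 9 rows were at least 2-fold lower and 0 higher. Sord, which oxidizes the sorbitol made by aldose reductase, had reads of 4 and 2 in SFZ and 139 and 36 in deep AC, up to a common factor, differences of -5.08 and -4.05 beside 0.27 and 0.29 for Akr1b1. Hk2, a hexokinase, differed by -1.58 and -3.82. In the proline and glutamate list 0 of 10 were lower and 1 higher, Got1, a cytosolic aspartate aminotransferase, at 2.39 and 2.53.

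In the folate pathway 1 of 12 rows was at least 2-fold lower and 1 higher. Slc19a1, the carrier that brings reduced folate into cells, differed by -2.33 and -4.34, in the direction of Aldh1l2, while Gldc, which breaks down glycine, had 355 (rat 1) and 65 (rat 2) reads in SFZ, with deep AC at the floor in either rat. In branched chain amino acid breakdown 2 of 17 were lower and 0 higher. Pccb and Mcee, of the propionate steps that follow Aldh6a1, differed by -8.25 and -1.21 and by -4.05 and -3.46, the first value against 0 reads of Pccb in SFZ rat 1.

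NRF2 is a factor known to raise many carbonyl and glutathione enzymes. Of 24 rows of its targets and regulators, 2 were at least 2-fold lower in both rats and 2 higher, with medians of -0.38 and 0.10. The quinone reductase Nqo1, at 1.89 and 2.47, and the glutathione transferase Gsta4, at 1.40 and 5.41, were higher, and Ugt1a6, at -4.34 and -4.02 with 0 reads in both SFZ libraries, and Gstm1, at -2.57 and -1.04, were lower. Of 17 rows of other carbonyl reductases and glyoxalases, 1 was lower and 1 higher. The higher one was Adhfe1, a mitochondrial iron-containing alcohol dehydrogenase outside the 3 families, with reads of 1094 and 3138 in SFZ and 101 and 171 in deep AC, up to a common factor, and differences of 3.47 and 4.32 (limma adjusted p = 0.304). The lower one was Hsd17b7, a hydroxysteroid dehydrogenase of sterol synthesis, at -1.64 and -4.53 (limma adjusted p = 0.692). Its reads were few, 5 and 1 in SFZ and 16 and 25 in deep AC, up to a common factor.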

How the data were processed

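RNA-seq of 4 libraries was used, SFZ and deep AC of 2 rats, in a single table of 31007 rows. The deposited values are log2 values that the authors scaled by TMM (trimmed mean of M values), per the title of the deposited table. Coordinates are on rn4, the build named per the submitters' processing notes. Not given in the sources used here are the aligner, the counting program and the use of strand. No row had a median farther than 9.65e-07 from 0, and 20218 rows held 0 throughout. In rows above the floor in 1 library, 94.0% to 96.7% of values were whole reads (relative tolerance 1e-05) times a constant of 1.02, 1.00, 0.996 and 0.923 in SFZ rat 1, SFZ rat 2, deep AC rat 1 and deep AC rat 2. The constants gave levels: 3375 rows had a library at the floor, and 5375 matched whole reads (relative tolerance 1e-06, sums up to 20000). In 2039 rows no match was found, and the lowest level that whole reads would then allow was assigned. A row with fractional reads could lie below that assigned level. Reads in rows of known level summed to 3758345, 3954512, 3763929 and 3885797, up to the common factors; total depth is unknown. Intervals and floors (3 counts) cover counting error only.

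The 8799 rows whose scaled reads averaged 10 or more were fitted with limma 3.58.1 in R 4.3.3, with zone and rat as terms and a trended prior, two-sided, with Benjamini-Hochberg adjustment over all rows and a threshold of 0.05. This recovery and fit were tested on simulated whole reads with no rat effect and the same spread in both zones. That test does not cover fractional reads or the wider spread of the SFZ libraries. The rat is a block because the titles tie both zones to an animal; across rows the correlation of the rat difference in SFZ with that in deep AC was 0.05. The p-values rest on how far the zone difference varied between these 2 animals, moderated by the spread shared across genes. Counts and family medians of members use all 28, also those under the minimum. Every member was named; values in each library went to members at least 2-fold apart in both rats and others the results turned on, some of them chosen after their values were seen. Members, lists and rules were chosen with earlier results of these data known. Promoters came from RefSeq (GRCr8), matched by gene ID for 22 of 28 members.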

Additional observations from a re-analysis of the deposited data

How the results depend on the processing

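Limma called 0 members without the replicate block (lowest adjusted p 0.298), with no minimum level, at a mean of at least 100 scaled reads, with 1 added, with quantile normalization (51 of all rows called), with an untrended or a robust prior and, chosen after seeing the data, on rows of known level only. Leaving out 1 library at a time called 0 to 3 members: without deep AC rat 1 they were Akr1c13 and Akr1c19 (adjusted p 0.0189 and 0.0204), and without deep AC rat 2 these and Adh6a (0.00874 each). Those fits have no rat term, these genes tie at the floor in SFZ, and the single deep AC library is assumed to vary like SFZ.

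Members at least 2-fold lower numbered 2 at a mean of at least 100 scaled reads (Akr1c14 and Aldh1l2), and 8 to 12 with a library left out, where the mean difference alone is counted. Members at least 2-fold higher numbered 1 at that mean, 1 at 4-fold, and 3 to 5 with a library left out. The Akr median was -2.59, and -0.33 at a mean of at least 100 scaled reads, where Akr1c14 is the only chromosome 17 gene left; with a library left out it ran from -3.90 to -1.95. The Aldh median (0.54) ran from 0.27 to 0.67. The Adh median (0.0006) was 1.86 at a mean of at least 100 scaled reads, 0.35 at a mean of at least 10, 0.0003 with 1 added and 0.25 with quantile normalization, and ran from 0 to 0.0012 with a library left out. The values at a minimum and with quantile normalization leave out Adh4 and Adh7, and so rest on fewer genes. At a mean of at least 100, Adh6a is left out too. The 1.86 then rests on Adh5 (0.35) and Adh6 (3.36), and Adh6 reached that mean through an assigned level.

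The mean difference changed sign with a library left out for Aldh7a1 (-1.09 to 0.90), Akr1b7 (-7.51 to 1.10), Akr1d1 (-0.79 to 1.24), Akr7a2 (-0.59 to 0.13) and Adh5 (-0.18 to 0.88); the cause was not tested. No other member changed sign under any alternative run. Without SFZ rat 2, Aldh1l2 was -1.30. Members at the floor in 3 libraries have a difference in 1 rat only; depth and low expression cannot be told apart there.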
